A study of Solanum lycopersicum with 8 samples.

Results

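The 87 genes described here are those whose transcript level was lower after heat stress in both leaf pairs of the data set, in wild type (WT) tomato and in plants labelled A2AS. They were chosen among 29345 listed genes by their measured values. The log2 ratio of heat over control, taken on values raised by 1, had to be at most −0.8 in both leaf pairs, each averaging 10 CPM or more (reads of a gene per 1000000 reads of the library). Of 7851 genes that passed the minimum in both leaf pairs, 96 met these thresholds, which is 1.22%. Genes at a log2 ratio of at most −1 in both anther pairs, 9 in all, were then set aside. The rule also leaves out 4 IDs by name, of which 1 passed the leaf thresholds and was among those 9.

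RNA was taken from young leaves and from anthers of different developmental stages of tomato (Solanum lycopersicum, cultivar Moneymaker) at 8 weeks of age, either WT or A2AS. A2AS plants are known from the study as transgenic tomato in which the heat stress transcription factor HsfA2 is suppressed, and the labels give neither the promoter nor the number of lines or plants pooled. Heat-stressed plants of both genotypes were moved from a glasshouse (16 h of day at 24 °C, 8 h of night at 20 °C) to a growth chamber with 120 μmol m−2 s−1 of light. The heat lasted 1 h at 39 °C, and a recovery of 1.5 h at 24 °C followed. The labels do not describe how control plants were handled, so the heat cannot be told apart from the transfer to the chamber. The 8 groups are WT control leaf, WT heated leaf, A2AS control leaf, A2AS heated leaf and the same 4 for anthers, with 1 library each and thus no replicates.

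Plants answer a rise in temperature on both sides of the transcriptome. Heat stress transcription factors switch on genes of chaperones, proteins that keep others from aggregating, and HsfA2 is one of the factors that accumulates during stress and prolongs that response. At the same time the transcripts of many genes of normal growth and metabolism decline, through less transcription, faster decay or both, which a measurement of RNA levels does not separate. The files do not pair the members' IDs with names, and IDs of this form do not occur (0 hits) in the 41476 entries of the reference gene table. No function is therefore given for any member, and the members are described by level, tissue, heat ratio and genotype.

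Libraries held 11534512 to 14764187 reads, except heated A2AS leaf with 6243965, and 3 reads corresponded to 0.203 to 0.480 CPM. Reads come from the 3′ end of transcripts, so levels can be compared between genes without a length term. Marker genes, identified by published tomato nomenclature, checked the labels. The pollen gene LAT52 stood at 106 to 295 CPM in anthers and at 1.47 to 2.67 in leaf, and the tapetum regulators MS10 and MS32 were at or below 0.260 CPM in leaf. A gene of the small subunit of Rubisco, the CO2-fixing enzyme of photosynthesis, stood at 7541 to 21574 CPM in leaf and at 155 to 209 in anthers. A small heat shock protein gene, a chaperone, went from 242 to 4221 CPM in WT leaf and from 25.8 to 741 in A2AS leaf, so both heated leaf libraries stood far above their controls. HsfA2 was at 10.3 CPM in WT control leaf and 21.7 in WT heated leaf, against 2.25 and 2.72 in the A2AS leaf libraries. In anthers it was at 1.93 in WT control and 22.3 in WT heat, and at 1.08 in A2AS control and 39.3 in the heated library labelled A2AS. That last level goes against the label, and this limit holds for each direction given for heated A2AS anthers.

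In leaf the members were lower after heat by about the same factor in both genotypes, which is what chose them and is given as a description. The median log2 ratio was −1.08 in WT leaf (range −1.92 to −0.80) and −1.01 in A2AS leaf (−3.28 to −0.80). Over all genes above the same minimum of each pair, a mean of 10 CPM, the medians were 0.10 and 0.01. At the log2 threshold of −0.8, 3.34% of all genes were lower in WT leaf and 2.38% in A2AS leaf. Among genes passing the minimum in both pairs, the genes lowered in both were 34.9% of the 275 lowered in WT leaf and 54.2% of the 177 lowered in A2AS leaf. Together the 87 members made up 15465 CPM in WT control leaf and 7308 in WT heated leaf, and 13124 and 6017 CPM in A2AS leaf. In anthers their sum was 3624 CPM in WT control, 3192 in WT heat, 3788 in A2AS control and 3209 in A2AS heat. In leaf and in anthers alike, the sum was thus lower in both heated libraries than in both control ones. The gap was narrower in anthers, and in leaf it follows from the choice of members. In bulk tissue, fewer cells that contain a transcript and less of it per cell cannot be told apart. Of the leaf markers, the same Rubisco gene went from 16047 to 7541 CPM in WT leaf and from 21574 to 16121 in A2AS leaf. Of 3 Rubisco small subunit genes, 3 had lower values after heat in WT leaf and 2 in A2AS leaf, and the part of leaf makeup in the members' ratios was not tested.

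**Figure D1:**
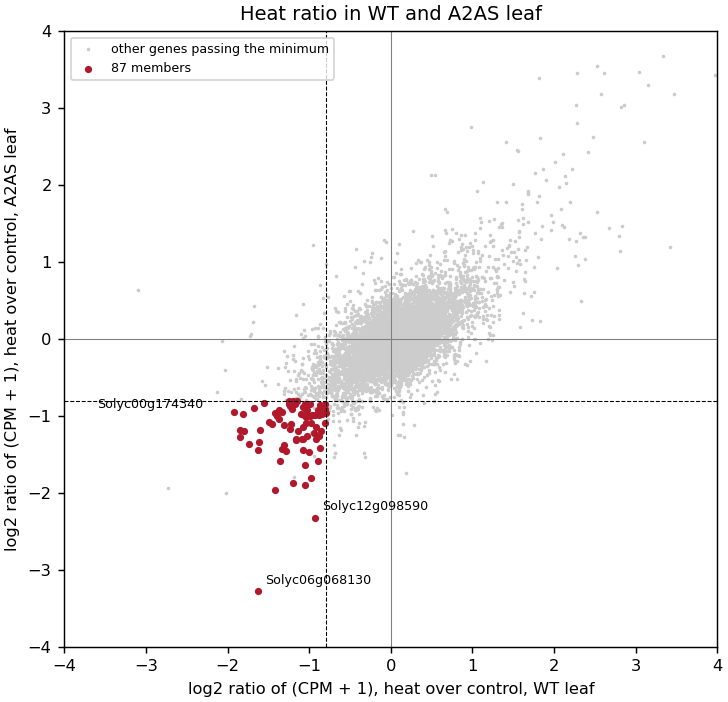
Log2 ratio of (CPM + 1), heat over control, in WT leaf (horizontal axis) and A2AS leaf (vertical axis) for genes passing the minimum in both leaf pairs. Red points are the 87 members, grey points are other genes (22 of 7764 lie outside the axes) and dashed lines mark −0.8. Grey points inside the lower left corner were excluded by the anther condition or by ID. The members lie between −1.92 and −0.80 in WT, while A2AS reaches −3.28.

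The difference was moderate for most members. Of the 87, 57 had a log2 ratio of at most −1 in WT leaf and 44 in A2AS leaf, 32 had it in both, and 1 was at most −1.5 in both. The 95% counting interval of the ratio lay wholly below 1 for all 87 members in both leaf pairs. The threshold and the minimum that chose the members lead to this outcome, so it lends the lower level no support. These intervals (exact, Clopper-Pearson) express counting error and nothing else. They take each read as a separate molecule, which was not checked, and reads may repeat a molecule. Just inside the threshold, Solyc01g090800 had leaf ratios of −0.80 and −0.96 log2 in WT and A2AS, and Solyc07g052980 had −1.20 and −0.80. Just outside it, Solyc05g007780 had −1.04 and −0.79, and Solyc00g174330 had −1.84 and −0.79.

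The lowest mean leaf ratios belonged to genes with little transcript in anthers. Solyc06g068130 stood at 138 CPM in WT control leaf and 43.9 in WT heat, and at 36.6 in A2AS control leaf and 2.88 in A2AS heat. In anthers its level was 2.26 CPM in control and 0.765 in heated WT, and 1.63 and 0.926 in A2AS. WT control leaf was thus the highest library and heated A2AS leaf stood near the anther levels. The heated level was 3.15-fold (2.87 to 3.46) below control in WT leaf. In A2AS leaf it was 12.7-fold (7.95 to 21.6) below, where the heated value rests on 18 reads. Solyc03g025190 stood at 41.3 CPM in control and 14.8 in heated WT leaf, at 27.9 and 6.41 in A2AS leaf, and between 0.510 and 1.51 in the 4 anther libraries. Its levels were 2.79-fold (2.36 to 3.30) and 4.36-fold (3.14 to 6.19) lower after heat in WT and A2AS leaf, and leaf and anther libraries did not overlap. Solyc06g068130 and Solyc03g025190 were picked by their leaf heat ratios and passed the minimum of the rule through leaf alone. Their folds in leaf and their leaf excess over anthers are thus given as a description.

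A few abundant members held much of the transcript. Solyc07g064160 stood at 5707 CPM in WT control leaf, 3014 in WT heat, 4482 in A2AS control and 2027 in A2AS heat. In anthers it lay between 168 and 221 CPM in all 4 libraries. It alone held 33.7% to 41.3% of the members' sum in leaf, and its heated level was 1.89-fold (1.87 to 1.92) below control in WT leaf and 2.21-fold (2.17 to 2.26) below in A2AS leaf. Without it the members' sum was 9758 CPM in control and 4293 in heated WT leaf, and 8642 and 3990 in A2AS. Solyc08g065220 was at 935 CPM in control and 306 in heated WT leaf, at 929 and 408 in A2AS leaf, and between 52.9 and 70.6 in anthers. The mean of the 2 control leaf libraries ranged over the members from 16.5 to 5095 CPM with a median of 51.9, against 28.9 over all 7851 genes passing the leaf minimum. It was at least 100 CPM for 27 members and below 30 CPM for 20.

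**Figure D2:**
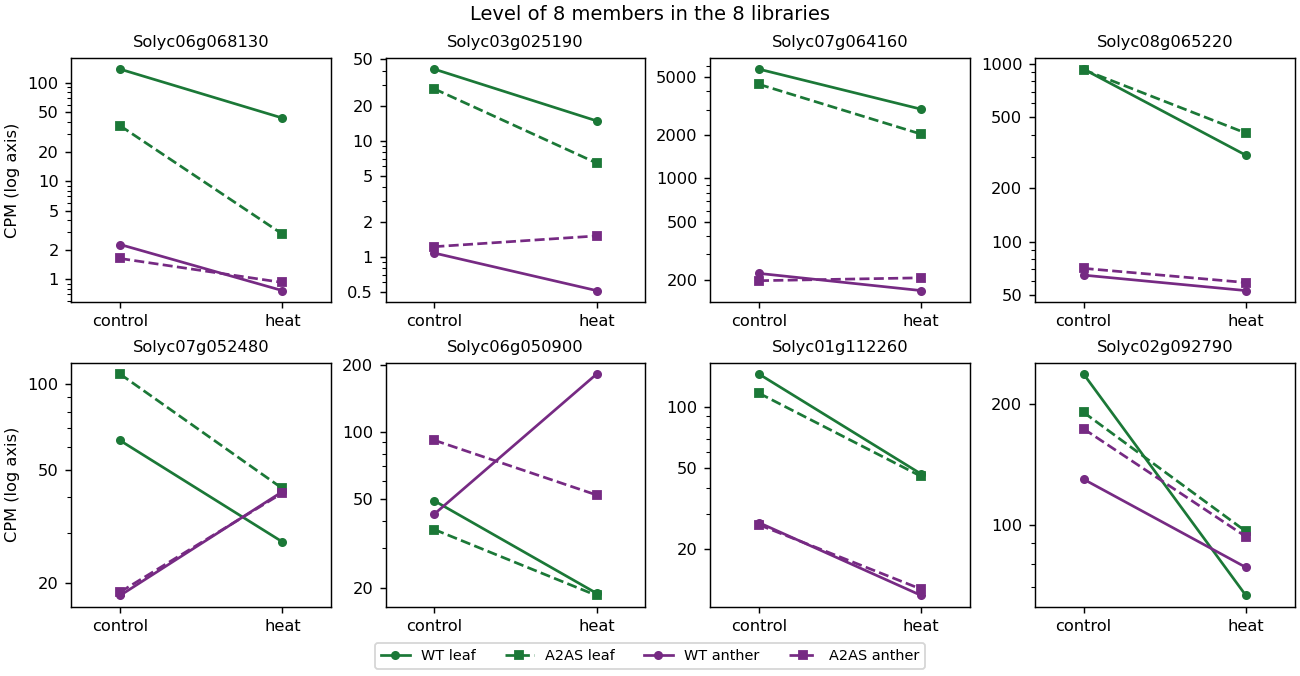
Level in CPM, on a log axis that differs between panels, of 8 members in control and heated libraries (1 library per point). Green marks leaf and purple anthers, with solid lines and circles for WT and dashed lines and squares for A2AS. Both leaf lines descend in every panel, while the anther lines of Solyc07g052480 ascend and those of Solyc06g050900 cross.

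WT and A2AS leaf gave similar ratios for most members. The ratios of the 2 genotypes were within 0.5 log2 of each other for 71 of the 87, and the median of WT minus A2AS was 0.03. The rule asked for a lower level in both genotypes, so this closeness is favoured by the choice. The 275 genes lowered in WT leaf had a median A2AS ratio of −0.64. The 177 lowered in A2AS leaf had a median WT ratio of −0.84. In 9 members the A2AS ratio lay more than 0.5 below the WT ratio, and in 7 the WT ratio lay more than 0.5 below that of A2AS. All 9 of the first group were at least 2-fold higher in leaf than in anthers in both control pairs, with a median leaf over anther log2 ratio of 4.23 in WT control. The same held for 4 of the 7 (median 2.60) and for 39 of the 71 others (median 1.61), and for 18.9% of all genes passing the leaf minimum. All 9 were lower in A2AS than in WT, with medians of −0.47 in control and −1.09 in heated leaf, and a wider gap after heat follows from how these 9 were picked. Of the 7, 5 were lower in A2AS control leaf, as were 72.2% of all genes. The widest gaps were those of Solyc06g068130, given above, and Solyc12g098590. Solyc12g098590 went from 24.8 to 12.5 CPM in WT leaf and from 17.6 to 2.72 in A2AS leaf, the last on 17 reads, and lay between 0.309 and 0.685 in anthers. In the other direction, Solyc00g174340 went from 259 to 67.8 CPM in WT leaf and from 78.4 to 40.1 in A2AS leaf. Solyc02g092790 went from 237 to 66.8 CPM in WT leaf and from 190 to 96.4 in A2AS leaf. For these 2 genes the heated levels of the genotypes lay closer together than, or on the other side of, their control levels. Both were lower in A2AS control leaf, so a shift of A2AS towards or past WT after heat follows from how they were picked. With 1 library per group the difference between genotypes was not tested in leaf, because the members' spread there had been narrowed by the choice of genes.

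Members stood mostly higher in leaf than in anthers. Over the 4 anther-leaf pairs, matched by genotype and treatment, 55 of 87 members were called higher in leaf and 6 higher in anthers by limma with Benjamini-Hochberg adjustment over 15220 genes. Among all genes tested the shares were 23.6% and 41.6%. Because the members had to reach 10 CPM in leaf, the shares among the 7851 genes passing that minimum are the closer comparison, and these were 31.9% and 33.3%. Of the 87 members, 30 did not average 10 CPM in both anther pairs. They passed the minimum of the rule through leaf alone, so the choice favours calls of higher in leaf. The difference in these tests is the mean over both genotypes and both treatments. Its residual holds the tissue difference of the heat ratio, which the choice of members widened. Of the 87 members 53 were higher in leaf in 4 of 4 pairs and 7 higher in anthers in 4 of 4.

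The leaf excess is given for control and heated pairs apart, because the choice of members by a lower heated leaf level makes it smaller after heat. The median leaf over anther log2 ratio of the members was 1.82 in WT control and 1.81 in A2AS control, against 0.10 and −0.24 for genes passing the leaf minimum. In heated pairs it was 1.09 in WT and 0.86 in A2AS, against 0.10 and −0.31. In both control pairs 52 of 87 members were at least 2-fold higher in leaf (59.8%, against 18.9% of genes passing the leaf minimum), and 39 were at least 4-fold higher. In 10 members all 4 anther values were below 2 CPM. The control leaf libraries are part of the ratios that chose the members, so a high control leaf level is favoured by the choice.

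The clearest leaf genes kept their order in every library. Solyc01g080460 stood at 376 CPM in control and 210 in heated WT leaf and at 232 and 125 in A2AS leaf, against 22.1, 10.7, 17.3 and 10.8 in WT control, WT heated, A2AS control and A2AS heated anthers. Leaf exceeded anthers by 3.82 ± 0.17 log2 (SE; limma adjusted p = 5.14e-07), higher in 4 of 4 pairs. Solyc00g174340, at 1.13 to 4.59 CPM in anthers, had the largest mean leaf excess, 4.83 log2. It was followed by Solyc08g080620, which stood at 54.7, 14.5, 29.4 and 11.5 CPM in the leaf libraries and at 0.169 to 0.364 in anthers, within a few reads of none. Its mean leaf excess was 4.21 log2. Both of these genes passed the minimum of the rule through leaf alone, so their excess is given with no test.

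A few members stood higher in anthers. Solyc10g086190 stood at 25.1 CPM in control and 11.3 in heated WT leaf, at 29.5 and 15.5 in A2AS leaf, and at 31.1 to 48.7 in anthers. Leaf was lower than anthers by a log2 difference of −0.99 ± 0.17 (limma adjusted p = 0.00103), in 4 of 4 pairs. Solyc08g081620 stood at 31.2 and 16.7 CPM in WT leaf and 51.4 and 21.8 in A2AS leaf, against 49.3 to 84.3 in anthers (−1.12 ± 0.22 log2, limma adjusted p = 0.00180). The mean difference was largest for Solyc06g050900 (−1.44 ± 0.43 log2, limma adjusted p = 0.0171), but in WT control this gene was slightly higher in leaf (0.19 log2). Its lowest pair was heated WT (−3.21 log2), where the choice of members favours a low leaf value. Its anther levels differed between libraries as given below. The order of the tissues switched for 8 members, which were higher in leaf than in anthers in both control pairs and lower in both heated pairs. Among genes passing the leaf minimum 0.866% did so, and the choice of members by a lower heated leaf level favours it. One of them, Solyc07g052980, had 362 CPM in control and 157 in heated WT leaf, 421 and 241 in A2AS leaf, and 328 to 346 in all anther libraries. Its anther values stayed within a narrow band while both leaf values crossed it. Another, Solyc04g054740, had 315 and 134 CPM in WT leaf and 421 and 195 in A2AS leaf, against 227 and 205 in WT anthers and 329 and 286 in A2AS anthers.

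**Figure D3:**
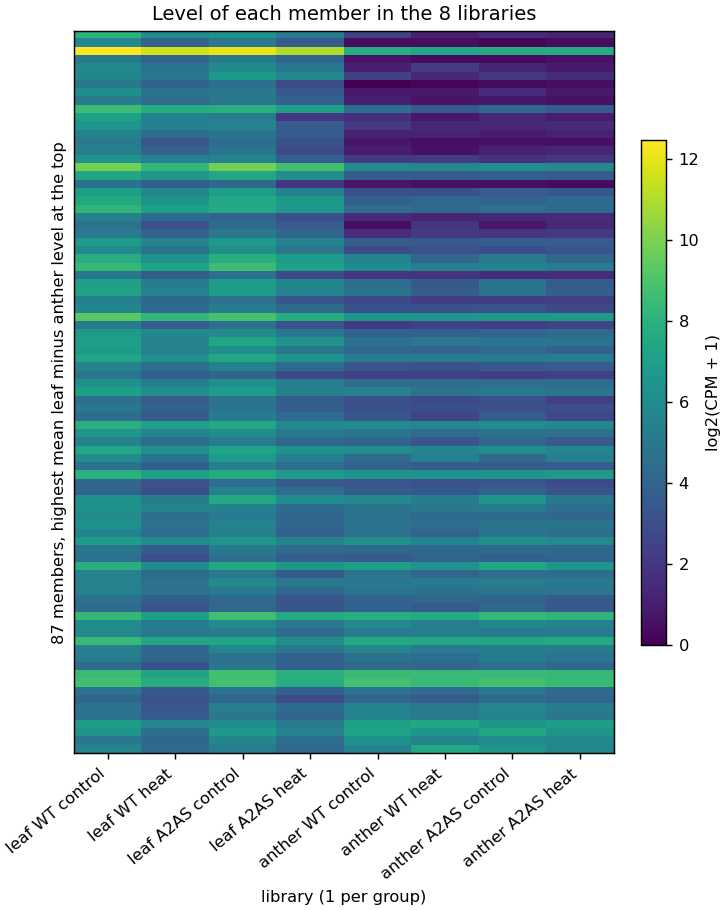
Level of each of the 87 members (rows) in the 8 libraries (columns), as log2(CPM + 1) in colour, ordered by the mean leaf minus anther level. Rows at the top are brighter in the 4 leaf columns than in the anther columns. Rows at the bottom are mostly brighter in the anther columns than in leaf. The last is Solyc06g050900 with a mean of −1.44 log2, though in WT control it was slightly higher in leaf (0.19 log2).

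In anthers most members differed little after heat, with a lean towards lower values. The median log2 ratio of all 87 members was −0.26 in WT anthers and −0.15 in A2AS anthers. Over members averaging 10 CPM or more per pair it was −0.28 and −0.23, against 0.07 and 0.04 over all genes at that minimum. Of the 87 members 50 were below 0 in both anther pairs, 16 above 0 in both and 21 of opposite sign. Among the 57 that averaged 10 CPM or more in both anther pairs, 37 were below 0 in both and 8 above, where all genes at that minimum had 28.4% below and 42.6% above. The exclusion of genes at most −1 in both anther pairs removed the lowest joint ratios, so the lean is that of what was left. The anther markers also differed with heat: LAT52 went from 295 to 106 CPM in WT and from 136 to 163 in A2AS, MS10 from 16.0 to 26.7 and from 10.1 to 17.2, and MS32 from 19.2 to 25.7 and from 17.6 to 18.6. The part of anther stage and makeup in the members' ratios was not tested. The 57 members above the anther minimum are 65.5% of the members, whereas 86.8% of genes passing the leaf minimum also passed in anthers. Of the 57, 33 lay within 0.5 log2 of 0 in both pairs, or 57.9% against 75.4% of all 9114 genes passing there. A further 9 were at most −0.5 in both, or 15.8% against 3.42%.

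At 2-fold few members differed in anthers. Among genes averaging 10 CPM or more per pair, 2 members were at least 2-fold higher (2.55% of all genes) and 2 at least 2-fold lower (2.67%) after heat in WT anthers. In A2AS anthers 1 was higher (2.22%) and 2 were lower (2.5%). Genes chosen by the mirror rule in leaf, a log2 ratio of at least 0.8 in both leaf pairs, numbered 200, and 67 of the 145 passing the anther minimum were also at least 2-fold higher in both anther pairs. Before the anther exclusion, 8 of 65 leaf-lowered genes passing that minimum were at most −1 in both anther pairs. Conversely, of the 46 genes lowered at least 2-fold in both anther pairs that passed the leaf minimum, these 8 were lowered in both leaf pairs, and the 46 had median leaf ratios of −0.34 in WT and −0.44 in A2AS. These counts were not tested against each other. Across the 57 members the leaf and anther heat ratios had a Pearson correlation of 0.10 in WT and 0.06 in A2AS. Across 6814 genes passing both minima it was 0.53 and 0.61. Genes are not independent replicates, and the members span a narrow range of leaf ratios.

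The anther heat ratio was tested by limma over the 4 anther libraries, where WT and A2AS serve as the repeats. It therefore measures how the ratio varied between WT and A2AS and not between plants. Of 74 members above its expression minimum (a mean of 2 CPM), 1 was called higher (0.889% of 14954 genes) and 0 lower (0.508%). At an unadjusted p under 0.05 there were 3 members higher and 23 lower, against 1942 and 1308 of all 14954 genes. The rule had removed genes at most −1 in both anther pairs, which are those most open to a call, so nothing is read from the lower counts. The one called was Solyc07g052480, at 18.0 CPM in control and 41.8 in heated WT anthers and 18.6 and 41.4 in A2AS anthers. In leaf it went the other way, from 63.3 to 27.9 CPM in WT and from 108 to 42.9 in A2AS, so that heated leaf stood below heated anthers in WT and near them in A2AS. It rose in anthers by 1.14 ± 0.10 log2 (SE; limma adjusted p = 0.0418), higher in 2 of 2 pairs. The adjusted p was 0.0539 with the 100 most abundant genes left out of the total, 0.0703 with no minimum and 0.0891 without a variance trend.

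Lower values in all 4 heat pairs were found in 50 members, of which 0 were called lower in anthers. Solyc01g112260 stood at 145 CPM in control and 46.9 in heated WT leaf, 117 and 45.6 in A2AS leaf, 27.1 and 11.9 in WT anthers and 26.4 and 12.8 in A2AS anthers. Its anther difference was −1.06 ± 0.11 log2 (limma adjusted p = 0.0599), just short of the exclusion in A2AS. Solyc02g092790 stood at 130 CPM in control and 78.5 in heated WT anthers and at 173 and 93.6 in A2AS anthers, a difference of −0.80 ± 0.09 log2 (limma adjusted p = 0.0620). Both passed under median-ratio scaling (limma adjusted p = 0.0465 for each). Under that scaling, however, Solyc01g112260 and Solyc09g011140 met the anther exclusion of the rule and were no longer members. The lowest mean anther ratio, −1.19 log2, was that of Solyc09g011140, at 49.1 and 17.6 CPM in WT anthers and 33.3 and 16.8 in A2AS anthers. Solyc04g078140 was higher after heat in both anther pairs, at 135 and 180 CPM in WT and 96.7 and 121 in A2AS, without passing the test (0.37 ± 0.08 log2, limma adjusted p = 0.143).

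A few members had unlike heat ratios in the anthers of the 2 genotypes. Solyc06g050900 stood at 42.8 CPM in WT control anthers and 182 in WT heated anthers, a 4.26-fold (3.88 to 4.69) higher level. In the anthers labelled A2AS it stood at 91.8 CPM in control and 52.1 in heat, a 1.76-fold (1.61 to 1.93) lower level. Leaf values were 49.1 and 18.8 CPM in WT and 36.5 and 18.4 in A2AS, so the genotypes were close in leaf and opposite in anthers. Solyc01g103760 was also of opposite sign, at 26.7 and 31.3 CPM in WT anthers and 35.5 and 21.7 in A2AS anthers. Solyc06g065900 and Solyc06g061230 were lower after heat in WT anthers (26.6 to 16.7 and 45.8 to 25.9 CPM) and nearly level in A2AS anthers (21.3 to 21.4 and 31.7 to 28.5 CPM).

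**Figure D4:**
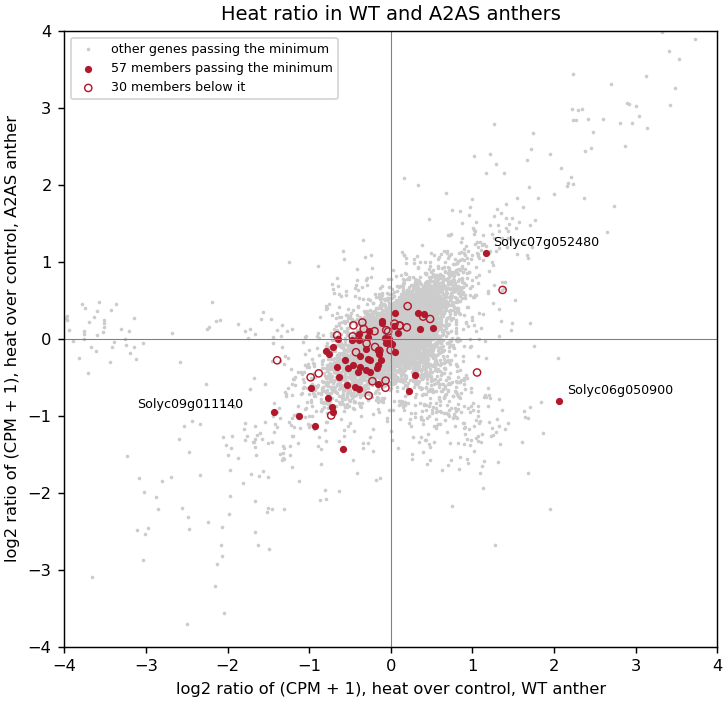
Log2 ratio of (CPM + 1), heat over control, in WT anthers (horizontal axis) and A2AS anthers (vertical axis). Filled red points are the 57 members averaging 10 CPM or more per pair in both anther pairs, open red points the other 30 members, and grey points other genes passing that minimum (46 of 9057 lie outside the axes). Solyc07g052480 stands above 1 in both genotypes and Solyc06g050900 at 2.07 in WT and −0.81 in A2AS.

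Between the genotypes, the median of the members stood near that of all genes in control leaf and slightly above it in heated leaf. The median log2 ratio of A2AS over WT was −0.24 in control leaf and −0.16 in heated leaf (−0.14 for members above the minimum there). All genes above the minimum had −0.21 and −0.32. The heated leaf ratio is the control leaf ratio changed by the gap between the 2 leaf heat ratios, which chose the members. Nothing is therefore read from the shift against all genes in heated leaf. The sign of the median over all members in heated leaf depends on the scaling: it was 0.15 under median-ratio scaling and 0.0021 with the 100 most abundant genes left out of the total. Median-ratio scaling moved the median of all genes there as well, to −0.02. Leaf markers differed between the genotypes too: the other Rubisco small subunit genes stood at 6065 and 1480 CPM in WT control leaf against 12429 and 4079 in A2AS. In heated leaf they stood at 4886 and 1252 CPM against 11211 and 4660, and the part of leaf makeup in the genotype ratios was not tested. In both leaf pairs 49 members were lower in A2AS, or 56.3% against 64.7% of all genes. In control leaf 3 members were at least 2-fold higher (1.93% of all genes) and 6 at least 2-fold lower in A2AS (2.76%). In heated leaf, of 79 members that averaged 10 CPM or more, 3 were higher (3.44% of all genes) and 10 lower (6.51%). The lower ones are a larger share than among all genes and the higher ones near it. Under median-ratio scaling these counts became 10 higher and 5 lower, and the difference in shares was not tested.

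Single members stood well apart from that median. Solyc06g068130 was 3.77-fold (3.41 to 4.18) lower in A2AS control leaf and 15.2-fold (9.55 to 25.9) lower in A2AS heated leaf. Solyc08g080040 stood at 91.6 CPM in control and 43.7 in heated WT leaf and at 45.2 and 11.4 in A2AS, so A2AS stood 2.03-fold (1.83 to 2.24) and 3.85-fold (3.0 to 4.99) below WT. The other way, Solyc06g064550 stood at 14.7 and 7.07 CPM in WT leaf and 42.6 and 21.0 in A2AS leaf, a 2.89-fold (2.43 to 3.45) and 2.97-fold (2.27 to 3.89) higher level. In anthers it lay between 8.57 and 13.4 CPM in all 4 libraries. Solyc01g108630 stood at 50.5 and 28.4 CPM in WT leaf and 110 and 60.5 in A2AS leaf. In both of these genes the heat ratio was nearly the same in the 2 genotypes although the levels differed.

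**Figure D5:**
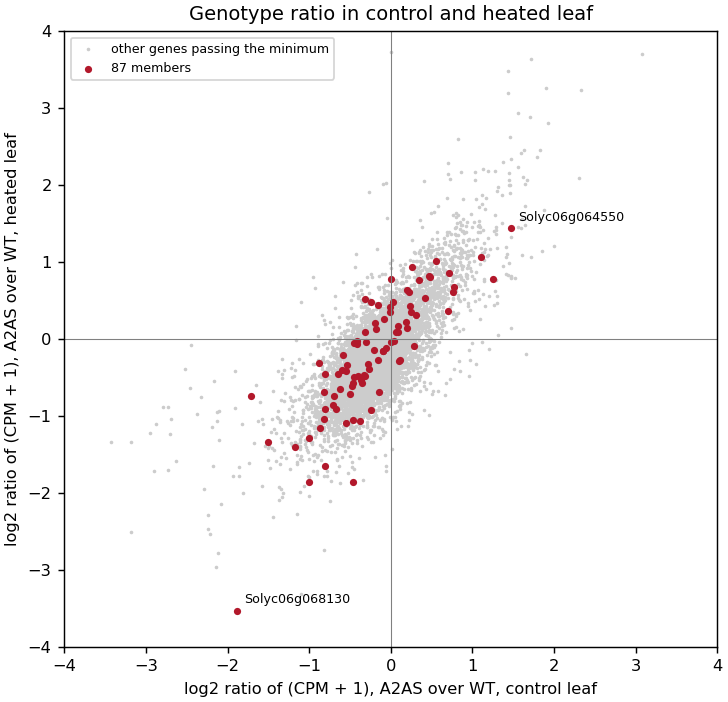
Log2 ratio of (CPM + 1), A2AS over WT, in control leaf (horizontal axis) and heated leaf (vertical axis) for genes passing the minimum in both leaf pairs. Red points are the 87 members and grey points the other 7764 genes. Solyc06g068130 stands apart at −1.89 and −3.53, and Solyc06g064550 at 1.47 and 1.45.

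In anthers the genotypes differed little for the members. The median log2 ratio of A2AS over WT was 0.04 in control anthers and 0.07 in heated anthers over all 87 members. Over members averaging 10 CPM or more per pair it was 0.08 and 0.09, against 0.08 and 0.08 over all genes at that minimum. In control anthers 1 member was at least 2-fold higher (0.695% of all genes) and 0 lower (1.32%), and in heated anthers 0 were higher (0.918%) and 1 lower (1.37%). Both of these are Solyc06g050900. By limma over the 4 anther libraries no member and no other gene was called for A2AS (0% in each direction), and 5 members higher and 3 lower had an unadjusted p under 0.05 (10.8% of members tested, against 5.64% of all genes). The largest mean differences were those of Solyc04g054740 (0.51 ± 0.08 log2) and Solyc04g078140 (−0.52 ± 0.08), each with a limma adjusted p of 0.764.

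The IDs spread the members over the genome. By the chromosome number in the ID, 14 members lie on chromosome 1 and 12 on chromosome 6, with 2 to 8 on each of the other numbered chromosomes and 1 with the number 0. As a share of the genes passing the leaf minimum on each numbered chromosome, that is 0.340% (chromosome 5) to 2.35% (chromosome 10). The share was 1.12% on chromosome 1 and 1.60% on chromosome 6. Only 1 pair of members stood within 10 listed genes of each other, the neighbours Solyc01g099010 and Solyc01g099020. The former stood at 33.1 and 9.20 CPM in WT leaf and 21.7 and 7.85 in A2AS leaf, with at most 0.765 in anthers. The latter stood at 315 and 149 CPM in WT leaf and 383 and 140 in A2AS leaf, with 33.6 to 63.7 in anthers. A further neighbour pair straddles the threshold. Solyc00g174330, outside it, went from 384 to 107 CPM in WT leaf and from 121 to 69.7 in A2AS leaf, close to the pattern of Solyc00g174340 in every leaf library. The treatment of reads that match more than 1 gene is not given, so the split of reads between near-identical genes is uncertain.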

How the data were processed

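The authors deposited 1 table per library with CPM values (reads of each gene scaled to a library total of 1000000, called TPM in the tables) and no gene length term. Per the labels' protocols, RNA was captured by its poly(A) tail and the terminal 500 bp of transcripts were read (massive analysis of cDNA ends). The submitters' processing notes name FastQC. Aligner, counter, strand use, build and annotation: not given in the sources used here. Library sizes were read from the step between low values. Between 77.6% and 83.9% of values above 0 were whole reads within 0.001, below the 95% asked for here, so no count model was run.

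Groups came from the labels, with 1 library each. Ratios were log2 of (value + 1) over (value + 1), which understates changes of low genes, and folds are ratios of the values. Intervals are 95% exact counting intervals on reads rounded to whole numbers. The tests used limma 3.58.1 on log2(value + 1) for genes averaging 2 CPM or more over the fitted libraries, with a variance trend and a Benjamini-Hochberg threshold of 0.05. Heat and A2AS were tested in the 4 anther libraries (1 block each, the other factor), and tissue over all 4 matched pairs. The leaf heat ratios chose the members and were not tested. Steps were tested on simulated data. The labels do not say whether libraries come from 1 plant or several, and the anther tests measure spread between genotypes or treatments, not plants. Alternatives changed the pseudocount, scaling, minimum, threshold, trend and libraries.

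The members, lists and tests were chosen with earlier results of these data known. Named members are, by rule, at most 2 in each direction per comparison with the most extreme values or smallest adjusted p, those nearest the threshold and the neighbouring pair. Solyc07g052980 and Solyc04g054740 among the 8 members whose tissue order switched were taken after their values were seen.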

Additional observations from a re-analysis of the deposited data

Results flagged for a closer look

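Solyc07g052480 drew attention because it was lower after heat in both leaf pairs and higher in both anther pairs, with a mean anther log2 ratio of 1.14. The difference between tissues was not tested, since the leaf ratios chose the gene. Solyc06g050900 drew attention because its heat ratio had opposite signs in the anthers of the 2 genotypes, 2.87 log2 apart. This difference was not tested, with 1 library per group, and the heated anther library labelled A2AS is the one whose HsfA2 level goes against its label. Groups of 1 library allow no search for a sample far from the others of its group.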

How the results depend on the processing

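No paired analysis was possible because each group has 1 library and the labels give no replicate numbers that could pair samples, and the blocks in the tests are genotype and treatment, not replicates. The count of 87 members was 88 with a pseudocount of 0.5, 62 with one of 5, 130 under median-ratio scaling (84 of the 87 among them), 93 with the 100 most abundant genes left out of the total, and 106 and 59 with a pair mean of at least 5 and 20. It was 148 with no minimum and 32 at a log2 ratio of at most −1. Chosen after the data were seen, the WT leaf pair alone gave 275 genes, the A2AS leaf pair alone 176, and an exclusion by WT anthers alone 84.

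The anther heat test called 2 members lower under median-ratio scaling and 6 with all 8 libraries in the fit, and none higher (0) without the 100 most abundant genes, with no minimum or without a variance trend. Of the 2, Solyc01g112260 met the anther exclusion of the rule under that scaling. The anther A2AS test called 0 members in every alternative run. The tissue test called 3 members higher in anthers under median-ratio scaling, and leaving out 1 pair at a time gave 51 to 59 members higher in leaf and 6 to 8 higher in anthers.

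Members at least 2-fold different after heat became, in WT anthers, 4 higher with no minimum, and 1 lower with a pseudocount of 5 and 4 lower under median-ratio scaling. In A2AS anthers they became 0 higher under either, and 1 and 6 lower. For A2AS over WT, control leaf had 3 lower under median-ratio scaling. Heated leaf had 1 higher with a pseudocount of 5, 10 higher and 5 lower under median-ratio scaling, and 5 higher and 6 lower without the top 100. Control anthers had 0 higher under median-ratio scaling and heated anthers 2 lower with no minimum.

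Under median-ratio scaling the median of the members was −1.24 in WT leaf, −0.37 and −0.26 after heat in WT and A2AS anthers, −0.037 and 0.15 for A2AS over WT in control and heated leaf, and 1.94, 2.22 and 1.31 for leaf over anther in WT control, A2AS control and A2AS heat. Without the top 100 it was 0.0021 for A2AS over WT in heated leaf, and 1.94, 2.04 and 1.11 for those leaf over anther pairs. With a pseudocount of 5 it was −0.14 after heat in WT anthers, and 1.63, 0.86, 1.56 and 0.63 for leaf over anther in WT control, WT heat, A2AS control and A2AS heat. The cause was not tested, beyond the scaling itself, which moved the median of all genes in WT leaf from 0.10 to −0.06. Depth limits the lowest values, above all in heated A2AS leaf, where 3 reads are 0.480 CPM.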
